A study of Homo sapiens with 6 samples.

Results

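The 10 genes described here encode the kinases that carry the cell cycle forward and the enzymes that switch them on and off: the cyclin-dependent kinases CDK1, CDK2, CDK4, CDK6 and CDK7, the CDC25 phosphatases CDC25A, CDC25B and CDC25C, and the WEE1 family kinases WEE1 and PKMYT1. They were taken by gene symbol from the deposited table, where each of the 10 matched 1 of the 58735 genes, and all 10 passed the filter on low counts that left 15089 genes for testing. The cells were PANC-1, an established human pancreatic ductal adenocarcinoma line. The 3 control samples had received control siRNA (si-NC) and the 3 others siRNA against METTL16, an RNA methyltransferase (si-METTL16). The labels call the controls wild type in 1 field. Labels and the methods for RNA-seq both name siRNA, and those methods call the transfection stable. The methods for cell transfection instead name shRNA for METTL16 silencing in PANC-1, with lentiviral infection and puromycin selection of stable cells. A supplementary list holds 3 siRNAs against METTL16, and which of them was used for sequencing, or when RNA was taken, is not given in the sources used here. All samples come from a single line.

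A cyclin-dependent kinase is active only when it is bound to a cyclin, phosphorylated on its activation loop by the CDK-activating kinase, whose catalytic subunit is CDK7, and free of phosphate on the loop that covers its ATP-binding site. WEE1 and PKMYT1 place the inhibitory phosphates on that loop, and the CDC25 phosphatases remove them. CDK4 and CDK6 act with D-type cyclins in G1 phase, CDK2 with cyclins E and A at the start of and during S phase, and CDK1 with cyclins A and B in G2 phase and mitosis.

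The loop on which these enzymes act differs among the 5 kinases, as the following 30-base stretches of coding sequence show (MANE Select transcripts, GENCODE v44, 5′ to 3′). Capitals mark the codons of the residue pair that holds the inhibitory sites in CDK1 and CDK2, and of the residues at the same place in the other kinases.
CDK1: attggagaaggtACCTATggagttgtgtat
CDK2: atcggagagggcACGTACggagttgtgtac
CDK4: attggtgtcggtGCCTATgggacagtgtac
CDK6: atcggggagggcGCCTATgggaaggtgttc
CDK7: cttggggagggaCAGTTTgccaccgtttac
In CDK1 and CDK2 the marked codons encode threonine at residue 14 and tyrosine at residue 15, the pair that PKMYT1 can phosphorylate and of which WEE1 phosphorylates the tyrosine. CDK4 has alanine at residue 16 and tyrosine at residue 17, and CDK6 has alanine at residue 23 and tyrosine at residue 24, so both lack the threonine. CDK7 has glutamine at residue 22 and phenylalanine at residue 23, and thus neither of these sites. On GRCh38 the stretches of CDK2 (exon 1, chr12:55967036-55967065, plus strand), CDK4 (exon 2, chr12:57751655-57751684, minus strand) and CDK6 (exon 2, chr7:92833240-92833269, minus strand) each lie within 1 exon. The stretch of CDK1 crosses from exon 2 to exon 3 (chr10:60780193-60784724, plus strand, intron included), and that of CDK7 from exon 1 to exon 2 (chr5:69235027-69235408, plus strand, intron included).

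The deposited counts summed to between 15725298 and 18054436 per sample. The deposited FPKM values scale each count by a length set for the gene and by the total of its sample. For CDK2, 544 counts out of 16809558 at 2.83 FPKM in si-NC replicate 1 imply a length above the span of its locus (chr12:55966769-55972784). FPKM levels of different genes therefore depend on these lengths, whereas changes of a single gene between samples do not. METTL16 itself fell from 5.76 ± 0.279 to 2.03 ± 0.0346 FPKM (mean ± SD, n = 3 per group), with no overlap between the groups. As markers of the labelled pancreatic duct cell, KRT8 (151 FPKM in si-NC cells) and KRT18 (175 FPKM) were high and KRT19 stood at 44.8 FPKM, whereas EPCAM (1.82 FPKM) and KRT7 (0.949 FPKM) were low. KRT19 fell to 16.7 FPKM in si-METTL16 cells and KRT7 to 0.522 FPKM. The mesenchymal marker VIM was also high, at 184 FPKM in si-NC and 195 FPKM in si-METTL16 cells, and was not called. Of the markers of other cells, the 3 acinar and 2 islet genes summed to at most 0.036 FPKM in any sample, the 2 endothelial genes to at most 0.06 FPKM, and the leukocyte genes PTPRC and CD3E were at or near 0. The fibroblast list (COL1A1, COL3A1 and LUM) summed to between 25.9 and 29.97 FPKM in si-NC samples and between 62.4 and 66.2 FPKM in si-METTL16 samples, with 2 of its 3 genes called higher and LUM near 0. The macrophage gene CD68, which carried the leukocyte list, rose from 1.18 to 1.85 FPKM. The part of these shifts in the results below was not tested.

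Of the 10 genes, 6 were higher in si-METTL16 than in si-NC cells (edgeR's quasi-likelihood test, Benjamini-Hochberg adjusted p under 0.05 over all 15089 genes), where 18.4% of all tested genes were called higher. Only CDK6 among the 10 was lower, against 17.5% of all tested genes, and CDK4, CDK7 and CDC25B were not called. Taken in either direction, 7 of the 10 were called, against 35.9% of all genes, and the same 7 had samples that did not overlap between the groups, against 50.9% of all genes. The median log2 fold change of the 10 genes was 0.70, and that of all tested genes was -0.0045. The 7 genes called were 3 of the 5 cyclin-dependent kinases (CDK1, CDK2 and CDK6), 2 of the 3 phosphatases (CDC25A and CDC25C) and both inhibitory kinases (WEE1 and PKMYT1). In bulk RNA, a larger share of cells that express a gene and more of its RNA per cell cannot be told apart.

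**Figure D1:**
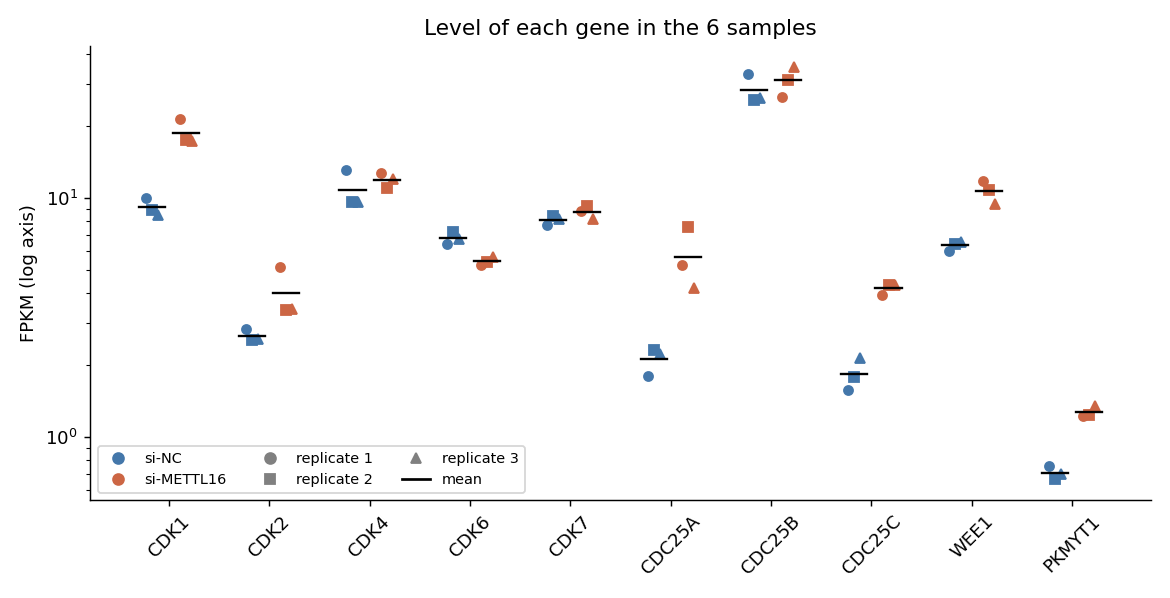
FPKM of the 10 genes (log axis) in each of the 6 samples, si-NC in blue and si-METTL16 in orange, with the symbol giving the replicate number and a bar at the mean of 3. The groups are separate for CDK1, CDK2, CDK6, CDC25A, CDC25C, WEE1 and PKMYT1 and overlap for CDK4, CDK7 and CDC25B.

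CDK1, the kinase of mitotic entry, showed the clearest change among the kinases. With samples given here and below in the order of replicates 1, 2 and 3, its FPKM was 9.98, 8.88 and 8.50 under si-NC, and it was 21.5, 17.5 and 17.4 under si-METTL16. Every si-METTL16 sample was thus far above every si-NC sample, with replicate 1 the highest of its group in both. The group means were 9.12 ± 0.767 and 18.8 ± 2.33 FPKM (SD, n = 3), and the counts behind them ran from 1059 to 1200 and from 1974 to 2558. The log2 fold change was 1.07 (standard error 0.11, 95% interval 0.81 to 1.32), with an adjusted p of 0.000527 by edgeR's quasi-likelihood test.

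CDK2, which drives S phase entry, moved the same way by less. Its FPKM was 2.83, 2.54 and 2.56 in the si-NC samples and 5.14, 3.38 and 3.44 in the si-METTL16 samples. The groups did not overlap, but si-METTL16 replicate 1 stood well above the other two samples of its group, and the coefficient of variation was 25.1% in si-METTL16 against 6.05% in si-NC samples. The log2 fold change of 0.61 (standard error 0.17, interval 0.21 to 1.02) had an adjusted p of 0.0297 by edgeR's quasi-likelihood test. Without si-METTL16 replicate 1 the log2 fold change was 0.38 (adjusted p = 0.0265), and the call was lost when any 1 si-NC sample was left out (adjusted p of 0.0591, 0.086 and 0.087 without replicates 1, 2 and 3).

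CDK4 and CDK6, the partners of the D-type cyclins, differed from each other. CDK4 had 13.1, 9.66 and 9.57 FPKM in the si-NC samples and 12.7, 11.0 and 12.1 FPKM in the si-METTL16 samples. These ranges overlapped because si-NC replicate 1 was higher than all 3 si-METTL16 samples. For CDK4, edgeR's quasi-likelihood test gave a log2 fold change of 0.17 (standard error 0.13, interval -0.14 to 0.48) and an adjusted p of 0.357. Without si-NC replicate 1 it was 0.33, with an adjusted p of 0.0346.

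CDK6 had 6.42, 7.22 and 6.74 FPKM in the si-NC samples and 5.22, 5.39 and 5.66 FPKM in the si-METTL16 samples. All 3 si-METTL16 values lay below all 3 si-NC values, and the spread within each group was small, with coefficients of variation of 5.95% and 4.10%. Fitted by edgeR, the change was -0.30 on the log2 scale (standard error 0.07, interval -0.47 to -0.14), with an adjusted p of 0.0143 by edgeR's quasi-likelihood test. This was the only one of the 10 genes called lower, and its change was the smallest in size among the 7 called.

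CDK7, the catalytic subunit of the CDK-activating kinase, had 7.70, 8.42 and 8.17 FPKM in the si-NC samples and 8.82, 9.28 and 8.15 FPKM in the si-METTL16 samples. The groups overlapped, since si-METTL16 replicate 3 lay within the si-NC range. Its log2 fold change was 0.13 (standard error 0.08, interval -0.06 to 0.33, adjusted p = 0.248 by edgeR's quasi-likelihood test). The upper end of this interval lies below the fitted change of CDK1, CDK2, CDC25A, CDC25C, WEE1 and PKMYT1. The interval of CDK2 (0.21 to 1.02) overlaps that of CDK7, and differences between genes in their change were not tested.

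**Figure D2:**
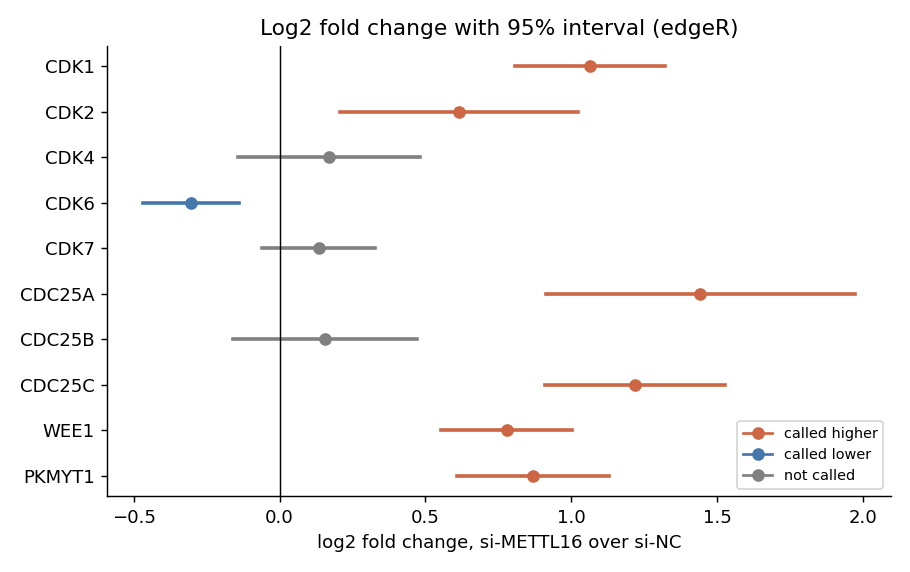
Log2 fold change (si-METTL16 over si-NC) of each gene from edgeR as a point with its 95% interval as a line, orange where called higher, blue where called lower and grey where not called. CDC25A has the largest value (1.44) and the widest interval (0.91 to 1.97), CDK6 is the one gene below 0, and the intervals of CDK4, CDK7 and CDC25B include 0.

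The summed level of the 5 kinases was 40.0, 36.7 and 35.5 FPKM in si-NC samples and 53.3, 46.6 and 46.7 FPKM in si-METTL16 samples. CDK1 made up 24.4% of this sum in si-NC cells and 38.4% in si-METTL16 cells (means of 3). The share of CDK6 went from 18.2% to 11.2%, that of CDK4 from 28.6% to 24.4% and that of CDK7, 19.3% to 23.0% over the si-NC samples, was 16.5% to 19.9% over the si-METTL16 samples. CDK2 held the smallest share in each group, at 7.06% and 8.08%. All of these shares depend on the length behind each FPKM, which for CDK2 lies above the span of its locus. These shares sum to a whole in each sample, so the smaller shares of CDK4 and CDK7 stand beside levels that were not called different.

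**Figure D3:**
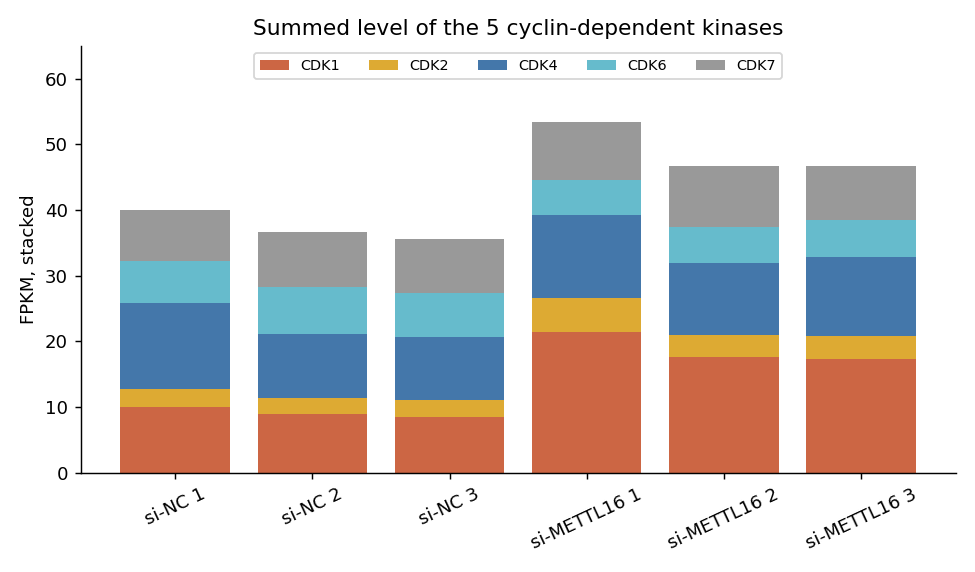
Stacked FPKM of CDK1, CDK2, CDK4, CDK6 and CDK7 in each sample, the bar height giving their summed FPKM, which depends on the length used for each gene. The CDK1 segment is taller in each si-METTL16 sample (17.4 to 21.5 FPKM) than in each si-NC sample (8.50 to 9.98 FPKM), while the CDK6 segment is shorter.

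Of the 3 CDC25 phosphatases, CDC25A and CDC25C rose and CDC25B, by far the most abundant, was not called. CDC25A, which acts on CDK2 and CDK1 and is the isoform needed at the start of S phase, had 1.80, 2.31 and 2.22 FPKM in the si-NC samples and 5.22, 7.54 and 4.20 FPKM in the si-METTL16 samples. The groups were widely separated, and the si-METTL16 samples differed among themselves more than those of any other of the 10 genes, with a coefficient of variation of 30.3%. At 1.44 (standard error 0.23; adjusted p = 0.00287 by edgeR's quasi-likelihood test), its log2 fold change was the largest of the 10. Left out in turn, the 6 samples gave values from 1.18, without si-METTL16 replicate 2, to 1.62, without si-METTL16 replicate 3, and each of the 6 fits called the gene higher.

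CDC25C, a phosphatase of the CDK1 and cyclin B complex, had 1.56, 1.77 and 2.14 FPKM in the si-NC samples and 3.91, 4.31 and 4.31 FPKM in the si-METTL16 samples. The lowest si-METTL16 sample was well above the highest si-NC sample, and the si-METTL16 samples lay close together. CDC25C changed by 1.22 on the log2 scale (standard error 0.13, interval 0.91 to 1.53), with an adjusted p of 0.00063 by edgeR's quasi-likelihood test. The gene shares 293 exonic bases with FAM53C, a gene on the opposite strand, and the sources used here do not say whether the counting used strand. FAM53C had 2277, 2136 and 2088 counts in si-NC samples and 2911, 648 and 768 in si-METTL16 samples, against 173, 197 and 245 and then 429, 447 and 513 for CDC25C. In si-METTL16 samples FAM53C was highest in replicate 1 and CDC25C lowest there. With both genes' counts summed, which FAM53C dominates, the log2 value was -0.27 (adjusted p = 0.632, edgeR), and the part of FAM53C reads in the CDC25C count was not tested.

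CDC25B, which acts on CDK1 at the onset of mitosis, had 33.2, 25.6 and 26.2 FPKM in the si-NC samples and 26.5, 31.3 and 35.5 FPKM in the si-METTL16 samples. The values were interleaved, with si-NC replicate 1 above 2 of the 3 si-METTL16 samples. For CDC25B the fitted log2 value was 0.16 (standard error 0.13, interval -0.16 to 0.47; adjusted p = 0.40 by edgeR's quasi-likelihood test). Together the phosphatases summed to 32.3 FPKM in si-NC and 40.9 FPKM in si-METTL16 cells, of which CDC25B held 87.6% and 75.9%. The share of CDC25A went from 6.66% to 13.9%, and that of CDC25C from 5.74% to 10.3%.

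The opposing kinases rose as well. WEE1, a nuclear kinase, had 6.02, 6.39 and 6.57 FPKM in the si-NC samples and 11.8, 10.8 and 9.42 FPKM in the si-METTL16 samples. Each si-METTL16 sample was above each si-NC sample by a wide margin. By edgeR's quasi-likelihood test WEE1 changed by 0.78 on the log2 scale (standard error 0.10, interval 0.55 to 1.00; adjusted p = 0.00103).

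PKMYT1, the membrane-bound kinase of the family, had the lowest level of the 10 genes, at 0.750, 0.663 and 0.695 FPKM in the si-NC samples and 1.22, 1.23 and 1.35 FPKM in the si-METTL16 samples. The groups did not overlap and both were tight. The log2 fold change was 0.87 (standard error 0.11, interval 0.61 to 1.13; adjusted p = 0.0012 by edgeR's quasi-likelihood test), from counts of 134 to 151 in si-NC samples and 231 to 291 in si-METTL16 samples. PKMYT1 shares 1228 exonic bases with PAQR4 and 357 with KREMEN2, both on the opposite strand. PAQR4 was also called higher (0.61 on the log2 scale, standard error 0.12, adjusted p = 0.00834 by edgeR's quasi-likelihood test) and had 452 to 820 counts, more than PKMYT1, whereas KREMEN2 was not called (0.28, adjusted p = 0.193). The part of reads from PAQR4 in the PKMYT1 count was not tested. WEE1 made up 90.0% of the summed WEE1 and PKMYT1 level in si-NC cells and 89.3% in si-METTL16 cells.

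Since genes for both activating phosphatases and inhibitory kinases rose, their levels were set against each other within each sample. The summed FPKM of the 3 phosphatases was 5.39, 4.21 and 4.21 times that of WEE1 and PKMYT1 in the si-NC samples, and 2.74, 3.58 and 4.09 times in the si-METTL16 samples. The groups did not overlap, but si-METTL16 replicate 3 came close to the 2 lower si-NC samples. The log2 change of this ratio was -0.42, with p = 0.1 by a two-sided exact permutation test over the 20 arrangements of the samples, the smallest p that 3 samples against 3 allow, and 0.12 after adjustment over the 6 ratios tested. Without si-METTL16 replicate 1 the log2 change was -0.26. This ratio describes transcript levels and not the activity of the enzymes. Its size and its change also depend on the lengths behind the FPKM of the summed genes. CDC25B, which was not called, held 87.6% of the phosphatase sum in si-NC and 75.9% in si-METTL16 cells. WEE1 held 90.0% and 89.3% of the kinase sum, so the ratio mostly sets CDC25B against WEE1. The fitted log2 fold changes of CDC25A (1.44) and CDC25C (1.22) were larger than that of WEE1 (0.78), and that of CDC25B (0.16) was smaller.

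Within the families, the ratio of CDC25A to CDC25B went from 0.0764 ± 0.0194 to 0.185 ± 0.0622 (SD, n = 3), and that of CDC25C to CDC25B from 0.0659 ± 0.0174 to 0.136 ± 0.0132. CDK1 stood at 3.45 ± 0.111 times CDK2 in si-NC cells and 4.81 ± 0.549 times in si-METTL16 cells, and CDK4 at 1.60 ± 0.382 and 2.20 ± 0.199 times CDK6. None of these 4 ratios overlapped between the groups, and each had p = 0.1 by the exact permutation test (0.12 adjusted over the 6 ratios). The size of a ratio between single genes depends on the lengths behind the FPKM, and its change between the groups does not. The ratio of PKMYT1 to WEE1 overlapped, at 0.111 ± 0.0114 and 0.120 ± 0.0204 (exact permutation test, p = 0.7, adjusted 0.7). In CDK4 over CDK6, the highest si-NC sample (replicate 1, 2.04) was just below the lowest si-METTL16 sample (replicate 2, 2.05).

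**Figure D4:**
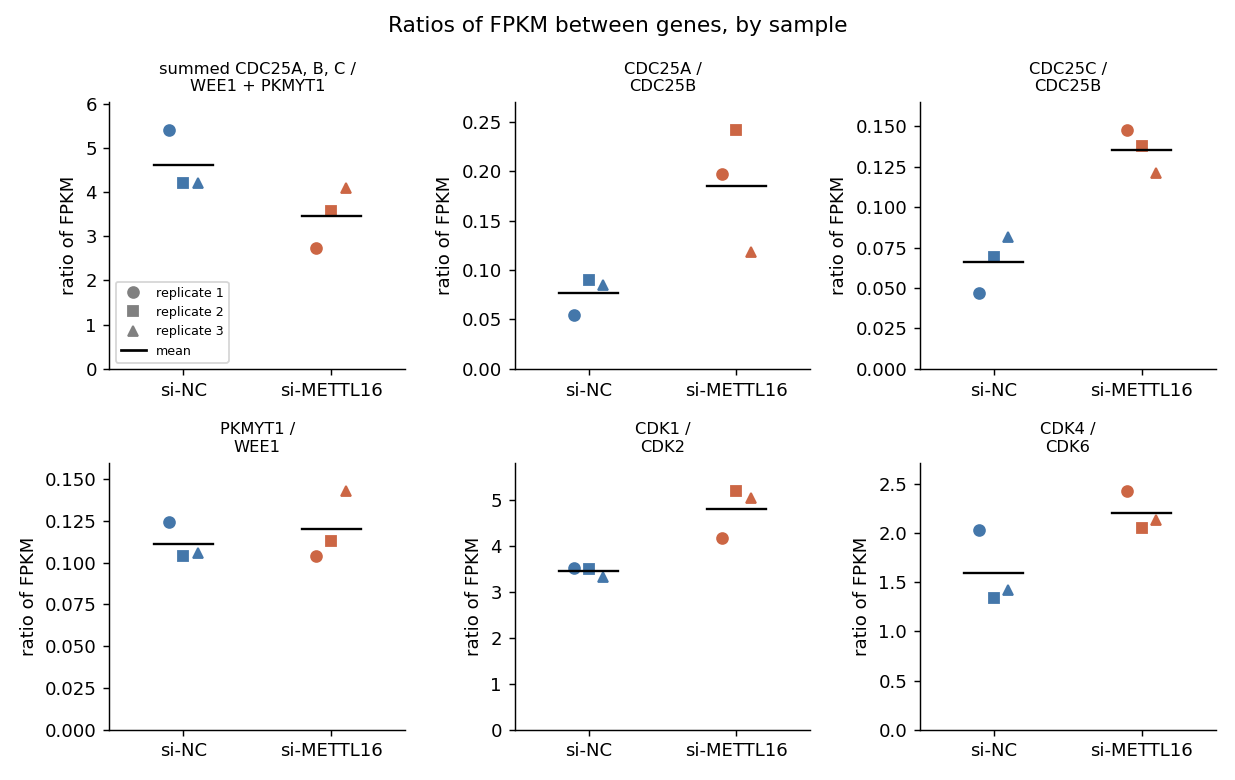
The 6 ratios of FPKM in each sample, si-NC in blue and si-METTL16 in orange, with symbols for the replicate number, a bar at the mean and each axis starting at 0. The ratio of the phosphatases to WEE1 and PKMYT1 is lower in si-METTL16 samples (2.74 to 4.09) than in si-NC samples (4.21 to 5.39), and only PKMYT1 over WEE1 overlaps between the groups.

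Ordered by mean FPKM, the genes ran in si-NC cells from CDC25B (28.3) through CDK4 (10.8), CDK1 (9.12), CDK7 (8.10), CDK6 (6.79), WEE1 (6.33), CDK2 (2.64), CDC25A (2.11) and CDC25C (1.82) to PKMYT1 (0.703). Neighbours whose samples overlapped in that order were CDK4 and CDK1, CDK6 and WEE1, and CDC25A and CDC25C. In si-METTL16 cells CDC25B (31.1) and PKMYT1 (1.27) kept the ends, but CDK1 (18.8) stood above CDK4 (11.9) without overlap, and WEE1 (10.7) above CDK7 (8.75). CDC25A (5.65) then stood beside CDK6 (5.42) and CDC25C (4.18) beside CDK2 (3.98). In both of these pairs the samples overlapped, as they did for CDK4 and WEE1. These orders depend on the length behind each FPKM. Raw counts, which are not divided by a length, kept CDC25B and PKMYT1 at the ends but ordered other genes differently. In si-NC samples CDK6 (1467, 1657 and 1595 counts) and WEE1 (1201, 1280 and 1356) stood above CDK1 (1200, 1072 and 1059). The FPKM order is thus not a ranking of transcript abundance.

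Promoters of some cell cycle genes are known for certain elements. Among them is the CHR (TTTGAA or TTCGAA), which recruits complexes that repress or activate genes of G2 phase and mitosis. Others are the CCAAT box, bound by NF-Y, and the E2F site, here TTTCCCGC, TTTGGCGC, TTTCGCGC or TTTGCCGC. These words were searched on both strands of RefSeq promoter windows (250 bases before to 50 after the start, GRCh38.p14) at the MANE Select start, where 7 of the 10 genes had an entry. The 4 of these 7 in which any word was found are shown around it, in the direction of transcription, with the element in capitals (ATTGG is CCAAT read on the other strand).
CDK1: cTTTGAAagtctacgggctacccgATTGGt
CDC25A: actgATTGGtggattccgTTTGGCGCcaac
CDC25B: ctgctgttatttTTCGAAtatataaggagg
CDC25C: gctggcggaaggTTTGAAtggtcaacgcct
They lie at chr10:60778408-60778437 (CDK1, plus strand), chr3:48188450-48188479 (CDC25A, minus strand), chr20:3796260-3796289 (CDC25B, plus strand) and chr5:138331817-138331846 (CDC25C, minus strand). The CDK1 window held 3 CHR words, 2 CCAAT boxes and 1 E2F word. That of CDC25A held 2 CCAAT boxes and 1 E2F word, and those of CDC25B and CDC25C held 1 CHR word and 1 CCAAT box each. None of the words was found in the windows of CDK4, CDK6 and CDK7. Of all 35116 windows, 16.4% held a CHR word, 34.6% a CCAAT box and 3.31% an E2F word. The 3 genes with promoters shown that rose (CDK1, CDC25A and CDC25C) thus stand beside CDC25B, which has the same kinds of word as CDC25C and was not called. A match is a description of the letters and not a bound site. CDK2, WEE1 and PKMYT1 were not searched.

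The proteins around these kinases were described by lists written from general knowledge. Of 9 cyclin partners, 8 were tested, 5 were higher, 2 lower and 1 not called, with a median log2 fold change of 0.74; over all tested genes, 18.4% were higher and 17.5% lower, and the median was -0.0045. CCNB2 (1.56, standard error 0.17, adjusted p = 0.000615) and CCNA2 (1.25, standard error 0.09, adjusted p = 0.000162), the cyclins that pair with CDK1 and with CDK1 or CDK2, rose the most by edgeR's quasi-likelihood test. Of the 3 D-type cyclins, the partners of CDK4 and CDK6, CCND2 (-1.56, standard error 0.38, adjusted p = 0.0165, from 24 counts or fewer per sample) and CCND1 (-0.48, standard error 0.05, adjusted p = 0.00071) fell by the same test. The third, CCND3, named after its values were seen, was not called and had a fitted value of the opposite sign (0.66, standard error 0.22, adjusted p = 0.0532 by edgeR). CCND2 lost its call without si-NC replicate 3 (adjusted p = 0.058), si-METTL16 replicate 1 (0.0579) or si-METTL16 replicate 3 (0.0552) by edgeR.

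Of 8 CDK inhibitors, 6 were tested, 3 were higher and 3 lower (18.4% and 17.5% of all genes), with a median log2 fold change of 0.05. CDKN1A, an inhibitor of CDK2 and CDK1 complexes, fell from between 3107 and 3502 counts to between 940 and 1070 (log2 fold change -1.63, standard error 0.07), and CDKN1C, of the same family, fell by 0.91 on the log2 scale (adjusted p of 8.34e-05 and 0.0135 by edgeR's quasi-likelihood test). CDKN3 (1.37, standard error 0.17) and CDKN2C (0.83, standard error 0.11) were higher (adjusted p of 0.00112 and 0.00125 by the same edgeR test). CDKN3 differs from the others of this list in being a phosphatase that removes the activating phosphate of CDKs, and CDKN2C binds CDK4 and CDK6. The 3 genes of this list that fell are the CDKN1 genes, and the 3 that were higher are not. The remaining higher gene, CDKN2D, was named after its values were seen. Its call was lost with a replicate block (adjusted p = 0.0604, edgeR) and without a filter (0.0592). It was also lost when si-NC replicate 1 or 2 or si-METTL16 replicate 1 or 3 was left out (0.0684 to 0.101). The genes of this list that were not tested had at most 1 count in any sample.

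Of 5 cofactors of CDKs, 3 were higher by edgeR's test and none had a fitted value below 0 (18.4% of all genes were called higher), with a median of 0.39. CKS1B (1.13, standard error 0.13, adjusted p = 0.000717) and CKS2 (0.58, standard error 0.12, adjusted p = 0.00883), small proteins that bind CDKs, rose by edgeR's quasi-likelihood test, and so did MNAT1 (0.39, standard error 0.10, adjusted p = 0.0233), the assembly factor that binds CDK7. MNAT1 lost its call without si-NC replicate 1 or 3 or si-METTL16 replicate 2 or 3 (adjusted p from 0.0526 to 0.0765, edgeR). Of 14 regulators of CDC25 and WEE1, 8 were higher, 2 lower and 4 not called, with a median of 0.27, beside 18.4% higher and 17.5% lower over all genes, so that the lower count is near the background. CHEK1, the kinase that marks CDC25 proteins for destruction or retention (1.02, standard error 0.22, adjusted p = 0.0112), and YWHAH, of the adaptor family that holds phosphorylated CDC25 (0.94, standard error 0.08, adjusted p = 0.000316), rose the most by edgeR's quasi-likelihood test. ATR, the kinase upstream of CHEK1 (-0.30, standard error 0.06, adjusted p = 0.00982), and BTRC, a ubiquitin ligase subunit for CDC25A and WEE1 (-0.24, standard error 0.07, adjusted p = 0.0362), fell by that test. BTRC lost its call when si-NC replicate 1 or 2 or any 1 si-METTL16 sample was left out (adjusted p from 0.0656 to 0.0937, edgeR).

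Of 16 other CDKs, 15 were tested, 6 were higher, 4 lower and 5 not called (18.4% higher, 17.5% lower over all genes), with a median log2 fold change of 0.39. The ends of this range were set by genes with few counts. CDK14 had 2, 7 and 13 counts in si-NC and 33, 32 and 30 in si-METTL16 samples (2.14, standard error 0.50, adjusted p = 0.0143), and CDK18 had 45, 37 and 71 and then 9, 13 and 19 (-1.85, standard error 0.36, adjusted p = 0.0069), by edgeR's quasi-likelihood test. Among genes with more counts, CDK16 rose (0.96, standard error 0.11, adjusted p = 0.000828) and CDK5, best known from neurons, fell (-0.60, standard error 0.11, adjusted p = 0.00588) by the same test.

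**Figure D5:**
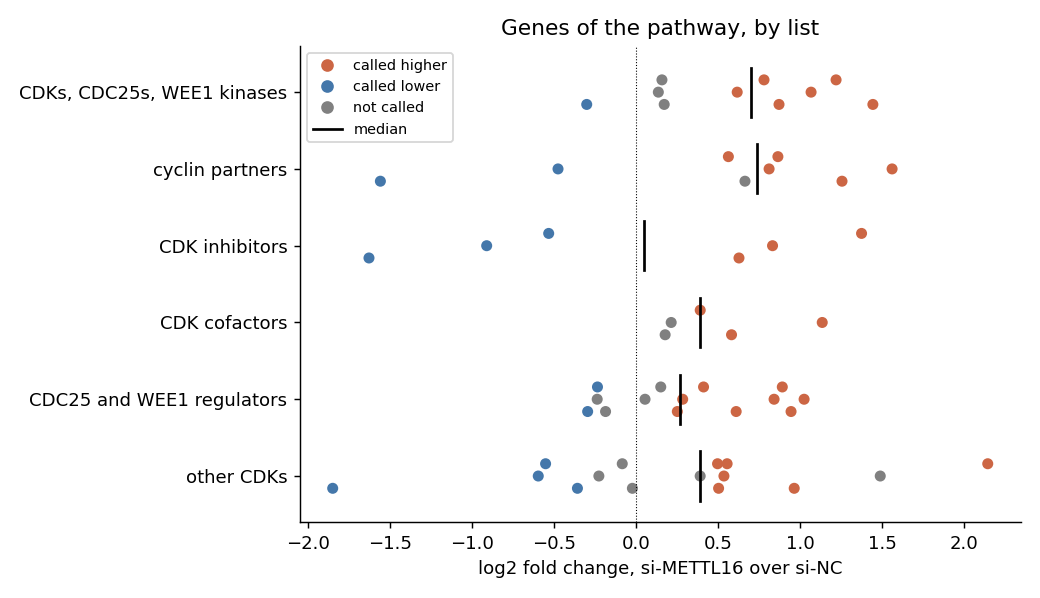
Log2 fold change (si-METTL16 over si-NC) of each tested gene as a point, by list, with the list's median as a bar, orange where called higher, blue where called lower and grey where not called. The medians run from 0.05 for the CDK inhibitors, whose genes lie on both sides of 0, to 0.74 for the cyclin partners, beside 0.70 for the 10 kinases and phosphatases.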

How the data were processed

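RNA-seq of 6 PANC-1 samples was used, 3 per group, which the methods call biological triplicates. If these are not separate cultures, the p-values measure technical spread. The authors deposited raw counts per gene, which are not normalized, and FPKM values, which they scaled by a length for each gene and by total count. The origin of these lengths is not given in the sources used here. The submitters' processing notes name HISAT2 2.0.4, StringTie 1.3.0 and the builds GRCh38 and hg38, with no role or order; the counting program, annotation release and use of strand are not given in the sources used here, which leaves the counts of overlapping opposite-strand genes uncertain. Start and end of 4 of the 10 genes equal GENCODE v44.

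Counts were filtered by filterByExpr (minimum count 10, minimum total count 15), scaled by TMM and compared without covariates by the quasi-likelihood functions glmQLFit and glmQLFTest (edgeR 4.0.16, R 4.3.3). P-values were adjusted by the Benjamini-Hochberg method over 15089 genes, and 0.05 was the threshold. Intervals are at 95%. The methods name limma, which was run as an alternative (3.58.1) because raw counts were deposited, as was DESeq2 1.42.0. Ratios used FPKM and an exact permutation test (scipy 1.17.1). Scripts were tested on simulated data. Sequences came from GENCODE v44 and RefSeq.

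Same-numbered samples deviated together with correlations of 0.0253, 0.0371 and 0.0298, so the numbers were not used as pairs. No replicates were duplicates. The text names the 10 genes, METTL16, some overlapping genes and marker genes. In each list it names the 2 called genes with the highest and the 2 with the lowest log2 fold change, and beyond these CCND3 and CDKN2D. Opposite-strand genes also overlap CDK2, CDK4, CDK6 and CDC25A. Among them TSPAN31 shares the most exonic bases, 1369 with CDK4, and had 70 to 110 counts per sample, against 1222 to 1647 for CDK4. The genes and lists were chosen with earlier results of these data known. Precision is limited by 3 samples per group and, for low genes such as PKMYT1, by depth.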

Additional observations from a re-analysis of the deposited data

How the results depend on the processing

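The 10 genes were also compared with a replicate block, after leaving out 1 sample at a time, with other filters (none, or 10 counts or more in each sample), with DESeq2 size factors or its Wald test, with limma on voom, log2(FPKM + 1) or log2(FPKM + 0.1) values (mean FPKM 1 or more), and with opposite-strand genes added to the counts. CDK1, CDK6, CDC25A, WEE1 and PKMYT1 kept their call and direction under every alternative in which they had a value (PKMYT1 is below the FPKM minimum and has none there), with log2 fold changes from 0.95 to 1.13, -0.35 to -0.26, 1.07 to 1.62, 0.67 to 0.87 and 0.60 to 0.91. The lowest value of PKMYT1, 0.60, was the one with the counts of PAQR4 and KREMEN2 added. PAQR4 has more counts than PKMYT1 and was itself called higher, so the call on that sum cannot be read as one of PKMYT1. CDC25B (0.05 to 0.28) and CDK7 (0.09 to 0.19) were called under none. CDC25C was called under all but the sum with FAM53C, where its log2 fold change was -0.27 (adjusted p = 0.632, edgeR); FAM53C supplies most of that sum. CDK2 lost its call without a filter (0.61, adjusted p = 0.0517, edgeR) and without each si-NC sample, with 0.38 to 0.72 over the samples left out; the cause was not tested. CDK4 was called only without si-NC replicate 1. The number of the 10 genes called higher was 5 or 6 throughout. The ratio of PKMYT1 to WEE1 changed by -0.035 on the log2 scale without si-METTL16 replicate 3, within a range of -0.035 to 0.20 over the samples left out. Cyclin partners called lower were 1 with at least 10 counts in every sample and with limma on either FPKM scale, and 1 to 2 over the samples left out; the missing call is CCND2, which those filters remove. Regulators called lower were 1 with the replicate block and without a filter, and 1 to 2 over the samples left out, BTRC having lost its call (adjusted p = 0.0663 and 0.0713, edgeR, in the first pair). Other CDKs called lower were 2 without a filter and with limma on either FPKM scale, and 2 to 4 over the samples left out. The replicate block changed no call among the 10 genes, of which 6 were higher and 1 lower with it. CDK14, CDK18 and CCND2 rest on few counts.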
